A study of Mus musculus with 36 samples.

Results

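Cerebellum-rich wild-type libraries are 6 of the 36 brain libraries of this series: WT-Veh-1, WT-Veh-6, WT-Veh-9, WT-aKG-3, WT-aKG-6 and WT-aKG-7. They were set against 11 other wild-type libraries, WT-Veh-2, 3, 4, 5, 7, 8 and 10 and WT-aKG-1, 2, 4 and 5. The members were chosen by measured values: the 6 libraries are high in Cbln1, Cbln3, Gabra6, Pcp2 and Zic1, genes known for their expression in the cerebellum. WT-aKG-8 lay between the classes and was left out of the comparison. The labels call every sample brain and give no region, so the class names describe the RNA and not a dissection. Because the split follows expression, every difference between the classes is a description, and no p-value is given for it.

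The series sequenced polyadenylated RNA from the brains of wild-type mice (WT) and of mice labelled as Gpt2 knockouts (KO). Gpt2 encodes the mitochondrial alanine aminotransferase, which interconverts alanine and α-ketoglutarate with pyruvate and glutamate. Mice were injected intraperitoneally with vehicle (WT-Veh and KO-Veh, n = 10 each) or with 600 mg per kg of dm-αKG (WT-aKG and KO-aKG, n = 8 each), the dimethyl ester of α-ketoglutarate. Brains were collected and frozen at postnatal day 19, and each library was made from a 10 mg piece. Neither strain, sex nor the design of the knockout allele is stated in the labels. Both classes hold wild-type mice only: the rich class holds 3 WT-Veh and 3 WT-aKG libraries, and the other class holds 7 WT-Veh and 4 WT-aKG libraries.

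The cerebellum is the hindbrain structure that adjusts movement and posture. Its cortex holds very many small glutamatergic granule cells, whose parallel fibres contact the large GABAergic Purkinje cells, the only output neurons of that cortex. Bergmann glia, a specialised astrocyte, line the Purkinje cell layer, and in the mouse granule cells are still being added in the weeks after birth. Cortical projection neurons, striatal spiny neurons and most forebrain interneurons are absent from it.

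The rich libraries held 10.6 to 12.5 M counts (M, mega), the others 7.52 to 13.3 M, and all 36 between 5.77 and 13.3 M. Gpt2, the gene that separates the genotypes, was listed at 23.4 to 37.3 CPM (median 27.4) in the rich libraries and 22 to 39 CPM (median 31.6) in the others, against 0.879 to 3.30 CPM in the knockouts. CPM here are counts scaled to the library total after TMM normalisation, which sets the bulk of genes equal between libraries. Xist exceeded Ddx3y in 3 of the 6 rich and 3 of the 11 other libraries, so both sexes may be present in each class. Some libraries stood apart in a further respect: the summed CPM of 39 Hox genes, which are expressed in the caudal hindbrain and spinal cord and not in the cerebellum or forebrain, was 206.6 in WT-Veh-2, 79.4 in WT-aKG-7 and 20.5 in WT-Veh-9, against 1.81 to 5.06 in the other 4 rich libraries and 1.26 to 4.67 in the other 10. WT-Veh-2 also had the highest list levels for thalamus, brainstem and myelin.

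The 5 markers gave the split and are listed as its definition. Cbln1, a secreted C1q-family protein that granule cells release to bridge their synapses with Purkinje cells, measured 315 to 487 CPM (median 376) in the rich libraries and 4.89 to 36.7 CPM (median 19.6) in the others. Cbln3, a partner of Cbln1 in the same cells, measured 219.6 to 347 CPM (median 235) against 1.32 to 16.4 CPM (median 6.16). Gabra6 encodes a GABA-A receptor subunit of granule cells, and Pcp2 a G-protein regulator of Purkinje cells. Gabra6 lay at 257 to 502 CPM (median 341) in the rich class and 1.67 to 12 CPM (median 6.52) in the other class, and Pcp2 at 554 to 1218 CPM (median 974) against 3.85 to 64.8 CPM (median 23.9). Zic1, a zinc finger factor of the granule cell lineage, had the smallest gap, 285 to 469.6 CPM (median 322) against 8.47 to 68.2 CPM (median 27.9). In log2 fold change the 5 ran from 3.42 (SE 0.36) for Zic1 to 6.19 (SE 0.32) for Gabra6. The mean of their log2(CPM + 0.5) gives a marker score, which was 8.38 to 8.88 in the rich libraries and 2.26 to 4.90 in the others, with WT-aKG-8 at 6.70. Just inside the split stood WT-Veh-6 (8.38), and just outside it WT-Veh-3 (4.90) on the low side.

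**Figure D1:**
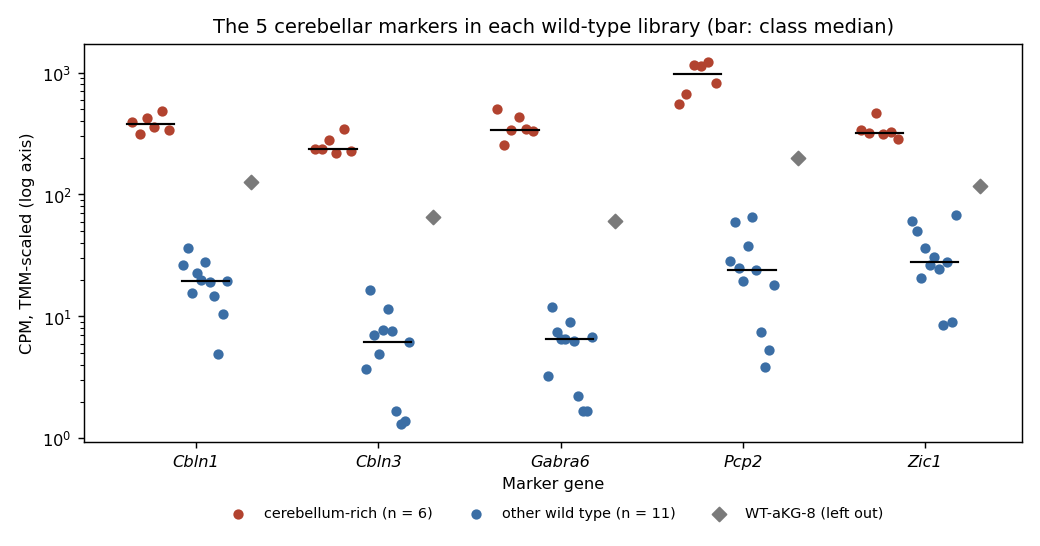
CPM on a log axis for the 5 markers, with a point for each wild-type library, a bar at the class median and a grey diamond for WT-aKG-8. The 6 rich libraries lie above all 11 others for each marker, and WT-aKG-8 lies between them, at 125 CPM for Cbln1 and 60.1 CPM for Gabra6.

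Of 15706 genes that passed the count filter, 8677 (55.2%) differed between the classes at an adjusted p under 0.05, 4452 (28.3%) higher and 4225 (26.9%) lower in the rich libraries (edgeR's quasi-likelihood fit with Benjamini-Hochberg adjustment). Without the 3 libraries high in Hox genes the count was 8213. These counts serve only as the background against which gene lists stand, and a gene past this threshold is called higher or lower. Over 2-fold differences numbered 1220 (7.77%) higher and 1521 (9.68%) lower, and 368 genes were over 4-fold higher and 465 over 4-fold lower. The most extreme differences were mostly upward: 58 genes were over 16-fold higher and 13 over 16-fold lower. For 1619 genes (10.3%) every rich library lay above every other library, and for 1244 (7.92%) every rich library lay below. Many genes named below were picked by a small p in this same split. Their lack of overlap therefore follows in part from that choice and does not describe their lists. The median log2 fold change of all genes was 0.01, with quartiles at -0.40 and 0.40. With library size in place of TMM the median moved to 0.24, with 6181 genes higher and 2554 lower, so that 70.8% in place of 51.3% of the differing genes were higher. Differences are given with TMM, and small ones within that shift depend on the scaling; a value marked log2 is the log2 fold change of rich over other libraries.

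Among genes of at least 5 CPM whose classes did not overlap, Gabra6, Cbln3 and Pcp2 were joined at the top by 7 genes. Il22, a cytokine gene with a near-identical copy in the mouse genome that makes its count uncertain, measured 45.1 to 75.1 CPM (median 57) in the rich libraries and 0.282 to 2.22 CPM (median 0.684) in the others, a log2 fold change of 5.93 (SE 0.25). Fat2, a giant cadherin of granule cell axons, measured 191 to 331 CPM (median 226) against 0.891 to 11 CPM (median 4.63), a log2 fold change of 5.84. En2, the engrailed homeobox factor of the midbrain and hindbrain boundary, measured 64.9 to 116 CPM (median 74.8) against 0.649 to 5.32 CPM (median 3.05), a log2 fold change of 5.15. Ppp1r17, the Purkinje cell phosphatase inhibitor also called G-substrate, reached 143 CPM in the rich class and at most 4.47 CPM in the other (log2 5.04). Cnpy1 (log2 5.75), Crtam (log2 5.34) and Arhgef33 (log2 4.91) completed the 10.

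RefSeq start sites (GRCm38.p6) were available for 7 of these 10 genes, with 11 windows in all. The 250 bases before the start are printed for the 3 genes whose windows held AGGTCA or its reverse complement TGACCT, the core motif of many nuclear receptors including the ROR factors, and for Gabra6, whose window held neither. Capitals mark the motif, each sequence runs 5′ to 3′ on the gene's strand, and the window of Pcp2 is that of the start farthest upstream.
Pcp2, chr8:3625548-3625797, minus strand: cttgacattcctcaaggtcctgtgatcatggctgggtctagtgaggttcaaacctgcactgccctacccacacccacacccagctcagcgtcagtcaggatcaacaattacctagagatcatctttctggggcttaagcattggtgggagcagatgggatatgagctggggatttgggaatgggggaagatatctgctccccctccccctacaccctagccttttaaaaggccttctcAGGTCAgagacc
Fat2, chr11:55312258-55312507, minus strand: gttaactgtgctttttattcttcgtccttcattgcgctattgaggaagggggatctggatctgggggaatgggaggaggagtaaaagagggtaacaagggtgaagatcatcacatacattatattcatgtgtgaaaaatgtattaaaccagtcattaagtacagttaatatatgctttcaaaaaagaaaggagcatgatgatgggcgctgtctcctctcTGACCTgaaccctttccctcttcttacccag
Arhgef33, chr17:80307157-80307406, plus strand: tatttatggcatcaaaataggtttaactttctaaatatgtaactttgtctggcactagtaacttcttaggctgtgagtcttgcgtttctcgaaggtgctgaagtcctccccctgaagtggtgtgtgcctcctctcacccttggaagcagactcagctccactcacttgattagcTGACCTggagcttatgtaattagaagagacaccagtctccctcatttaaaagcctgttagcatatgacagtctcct
Gabra6, chr11:42321073-42321322, minus strand: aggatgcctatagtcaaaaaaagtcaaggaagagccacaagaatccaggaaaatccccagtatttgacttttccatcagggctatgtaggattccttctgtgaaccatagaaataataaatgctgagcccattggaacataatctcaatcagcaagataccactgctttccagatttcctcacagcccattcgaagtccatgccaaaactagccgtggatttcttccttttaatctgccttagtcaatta
The motif began 12 bases before the start in Pcp2, 31 in Fat2 and 76 in Arhgef33. In Fat2 and Arhgef33 it reads TGACCT on the gene's strand. Of all 32851 RefSeq windows of this length 14% held it, and of the 11 windows here 5 did. Some windows of Pcp2 overlap and share a match, and no share per gene was computed. The presence of the motif in 3 of 7 genes therefore describes these windows and is no evidence of binding. Rora, which encodes a ROR factor of Purkinje cells, measured 134 to 247 CPM (median 155) in the rich libraries and 39.9 to 155 CPM (median 51.9) in the others, and these ranges overlapped.

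At the other end stood genes that include several of the forebrain. Sp9, a factor of forebrain GABAergic neurons, was at 0 to 0.708 CPM (median 0.347) in the rich libraries and 1.71 to 17.1 CPM (median 4.82) in the others, a log2 fold change of -4.52 (SE 0.68). Dlx1, a homeobox factor of the same lineage, was at 0.222 to 0.936 CPM (median 0.439) against 1.52 to 24.6 CPM (median 7.05), a log2 fold change of -4.2. Bcl11b, a factor of striatal and deep cortical neurons, ranged from 1.26 to 12.3 CPM against 32.9 to 98.9 CPM (log2 -3.6). Lrrc10b, Crym, Kcng1, Myo5b, Rgs14 and Stum had log2 fold changes of -4.05 to -3.39. The rich libraries were not free of these transcripts, and Crym, a thyroid hormone binding protein, reached 15.4 CPM there.

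The granule cell list was higher throughout. All 17 genes were past the threshold and higher, 16 of them without overlap between the classes, with a median log2 fold change of 2.64. The mean log2 level of the list was 6.57 to 7.16 (median 6.84) in the rich libraries and 2.86 to 4.2 (median 3.63) in the others. Neurod1, a bHLH factor of granule cell differentiation, was at 378 to 818 CPM (median 444) against 7.70 to 37.3 CPM (median 15.9). Il16, whose long form is made by granule cells, was at 33.2 to 64.8 CPM (median 36.9) against 0.891 to 3.41 CPM (median 2.57), a log2 fold change of 4.27, and the Rac regulator Chn2 had a log2 fold change of 2.64 (SE 0.16). The list includes 4 of the 5 genes that made the split. Neurod1, Il16 and Chn2 did not overlap between the classes.

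Purkinje cell genes were higher too: 18 of 19 were higher and none lower, with a median of 2.65. Car8, a carbonic anhydrase-related protein that binds the inositol trisphosphate receptor, was at 525 to 915 CPM (median 581) in the rich libraries against 15.4 to 37.6 CPM (median 28.2) in the others (log2 4.67). Itpr1, that receptor, was at 501 to 689 CPM (median 598) against 37.2 to 119 CPM (median 76.8), a log2 fold change of 2.98. Calb1, a calcium buffer, had a log2 fold change of 2.65 (SE 0.13), and Slc1a6, the glutamate transporter EAAT4 of Purkinje cells, 3.18 (SE 0.14). For Homer3, a scaffold of metabotropic glutamate receptors, it was 3.18. Aldoc, which marks stripes of Purkinje cells and is also an astrocyte gene, was the 1 member not past the threshold (log2 0.24, SE 0.15). The list includes Pcp2, which the split used. Skor2 was in the table and did not pass the count filter. Apart from Aldoc, none of the genes named here overlapped.

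Markers of other cerebellar neurons were higher in 7 of 10 genes (median 2.61, and 3.24 without the 3 libraries high in Hox genes). Eomes, a factor of unipolar brush cells, was at 14.1 to 23.2 CPM (median 17.7) against 0.186 to 4.92 CPM (median 0.681). Tfap2a and Tfap2b, factors of cerebellar GABAergic neurons, had log2 fold changes of 3.35 (SE 0.35) and 3.14 (SE 0.18). Bergmann glia genes were higher in 9 of 10 (median 1.56), led by Gdf10 (log2 2.81), a secreted TGF-β family protein, and Hopx (log2 2.66), a homeodomain-only cofactor. Hopx lay at 522 to 954 CPM (median 663) in the rich class and 75.9 to 150.3 CPM (median 110.1) in the other. Etv5 was lower (log2 -0.34). The classes overlapped for Etv5 and not for Eomes, Tfap2a, Tfap2b, Gdf10 or Hopx.

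Genes of dividing granule cell precursors and of immature neurons differed in both directions. Of 9 genes 2 were higher and 4 lower, with a median of -0.60. Ccnd2, a G1 cyclin, was at 15.5 to 31.6 CPM (median 20.4) against 35.8 to 123 CPM (median 92.1), a log2 fold change of -1.92. Sox11 (log2 -1.58) and Sox4 (log2 -0.87), factors of newborn neurons, and Stmn1 (log2 -0.93), a microtubule destabiliser, were lower with no overlap between classes. Other members went the other way: Nhlh2, a bHLH factor of newborn neurons, was higher at 4.40 to 8.52 CPM (median 5.45) against 0.111 to 4.29 CPM (median 0.584), a log2 fold change of 2.61, without overlap, and Draxin, an axon guidance protein, was higher (log2 1.08) with overlap. Atoh1, the defining factor of granule cell precursors, and Nhlh1 did not pass the count filter. In the cell division list 2 of 10 genes were higher and 2 lower, and Mki67 did not pass the filter.

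Genes of forebrain regions were mostly lower. In the cerebral cortex list 1 of 17 genes was higher and 16 lower, with a median log2 fold change of -2.98. Neurod6, a factor of cortical and hippocampal pyramidal neurons, was at 2.11 to 6.45 CPM (median 3.57) in the rich libraries against 12.7 to 42.9 CPM (median 33.4) in the others (log2 -2.98). The 1 higher gene of the list was Nptx1, a neuronal pentraxin, at 145 to 288 CPM (median 184) against 29 to 66.3 CPM (median 55.8), a log2 fold change of 2.01. Neurod6 and Nptx1 did not overlap between the classes, and both were detected in every rich library. Only 6 of the 17 genes lacked overlap. The mean log2 level of the list overlapped too, at 1.95 to 4.41 in the rich libraries and 4.21 to 6.19 in the others.

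Striatal genes were lower in 10 of 14 (median -2.45), and no gene was higher. Drd1, the D1 dopamine receptor, ranged up to 2.28 CPM in the rich class and from 2.19 to 19.5 CPM in the other. Adcy5, the adenylyl cyclase of striatal neurons, was at 15.7 to 33.2 CPM (median 27.5) against 48.3 to 123 CPM (median 73.3) without overlap. The other libraries were themselves uneven in this list, with mean log2 levels of 2.22 to 4.88. Hippocampal genes were lower in 5 and higher in 3 of 8: Fibcd1, a CA1 marker, had a log2 fold change of -2.78 (SE 0.38) and Prox1, a dentate granule factor, 1.12 (SE 0.29).

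Thalamic genes did not separate the classes. Of 9 genes 2 were lower and none higher (median -0.07), and Tcf7l2, the main thalamic factor of the list, lay at 10.1 to 37.8 CPM (median 13.3) against 9.83 to 115 CPM (median 15.3). The median with library size only was 0.14. Pmch, the melanin-concentrating hormone gene of the hypothalamus, reached 114 CPM in 1 of the other libraries and had a median of 0.857 CPM there. Of 9 hypothalamic genes tested 3 were lower, and of 5 midbrain and brainstem genes tested 1 was. Much of these lists was not tested: 8 of 17 and 11 of 16 genes did not pass the count filter, although members reached 10.8 and 19.3 CPM in a library of the other class. Among interneuron genes 3 of 14 genes were higher and 10 lower. Pvalb, the parvalbumin of fast-spiking interneurons and also of Purkinje and cerebellar stellate and basket cells, was at 1371 to 2054 CPM (median 1650.3) against 64 to 188 CPM (median 99.9), a log2 fold change of 4.13, and Reln, the reelin that granule cells secrete, at 32.9 to 58.2 CPM (median 42.4) against 6.30 to 18 CPM (median 8.65). Sst, the somatostatin of cortical interneurons, was at 7.26 to 55.7 CPM (median 26) against 86.8 to 256 CPM (median 167), a log2 fold change of -2.65. Tcf7l2 and Pmch overlapped between the classes, and Pvalb, Reln and Sst did not.

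Of the non-neuronal lists the microglial one differed throughout. All 11 microglial genes were lower, 10 of them without overlap, with a median log2 fold change of -1.16. Cx3cr1, the fractalkine receptor, was at 5.26 to 9.27 CPM (median 8.51) in the rich libraries against 18.6 to 29.9 CPM (median 24.9) in the others. P2ry12, a purinergic receptor of resting microglia, was at 11.5 to 15.9 CPM (median 13) against 24 to 39.8 CPM (median 32.7), and Tmem119 and Csf1r had log2 fold changes of -1.48 (SE 0.12) and -1.24 (SE 0.11). None of these 4 overlapped. The median difference kept its sign with library size only (-0.93). In bulk RNA fewer cells of a type and less RNA per cell cannot be told apart, here and for every list.

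Oligodendrocyte precursor genes were lower in 7 of 10 (median -0.99), with the receptor Pdgfra at 6.18 to 12.4 CPM (median 8.29) against 14 to 24.3 CPM (median 19.9). Vcan, the proteoglycan versican, was the 1 higher member (log2 1.13). Myelin genes were more spread than separated: 3 of 18 genes were higher and 3 lower, and Mbp, myelin basic protein, lay at 5049.6 to 16450.4 CPM (median 7725) against 2114 to 21193 CPM (median 3871). Of 18 astrocyte genes 3 were higher, 6 lower and 9 not past the threshold. Their median was -0.11, and 0.13 with library size only. Slc1a2, the glutamate transporter GLT-1, was at 235 to 487 CPM (median 328) against 762 to 2030.3 CPM (median 1282), a log2 fold change of -1.88 and Glul, glutamine synthetase, at 306 to 672 CPM (median 512) against 692 to 1540.2 CPM (median 1215), a log2 fold change of -1.2, both without overlap. Aqp4, the water channel of astrocyte endfeet (log2 1.15), and S100b (log2 1.48) were higher, and Aldh1l1 was not past the threshold (log2 -0.22, SE 0.12). In the endothelial list 0 of 12 genes were higher and 1 lower, with a median of 0.01, and the 6 rich libraries lay within the range of the others in its mean level. Mural cell and fibroblast, choroid plexus and blood lists had 2, 1 and 2 genes higher and 1, 0 and 0 lower of 13, 14 and 7.

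**Figure D2:**
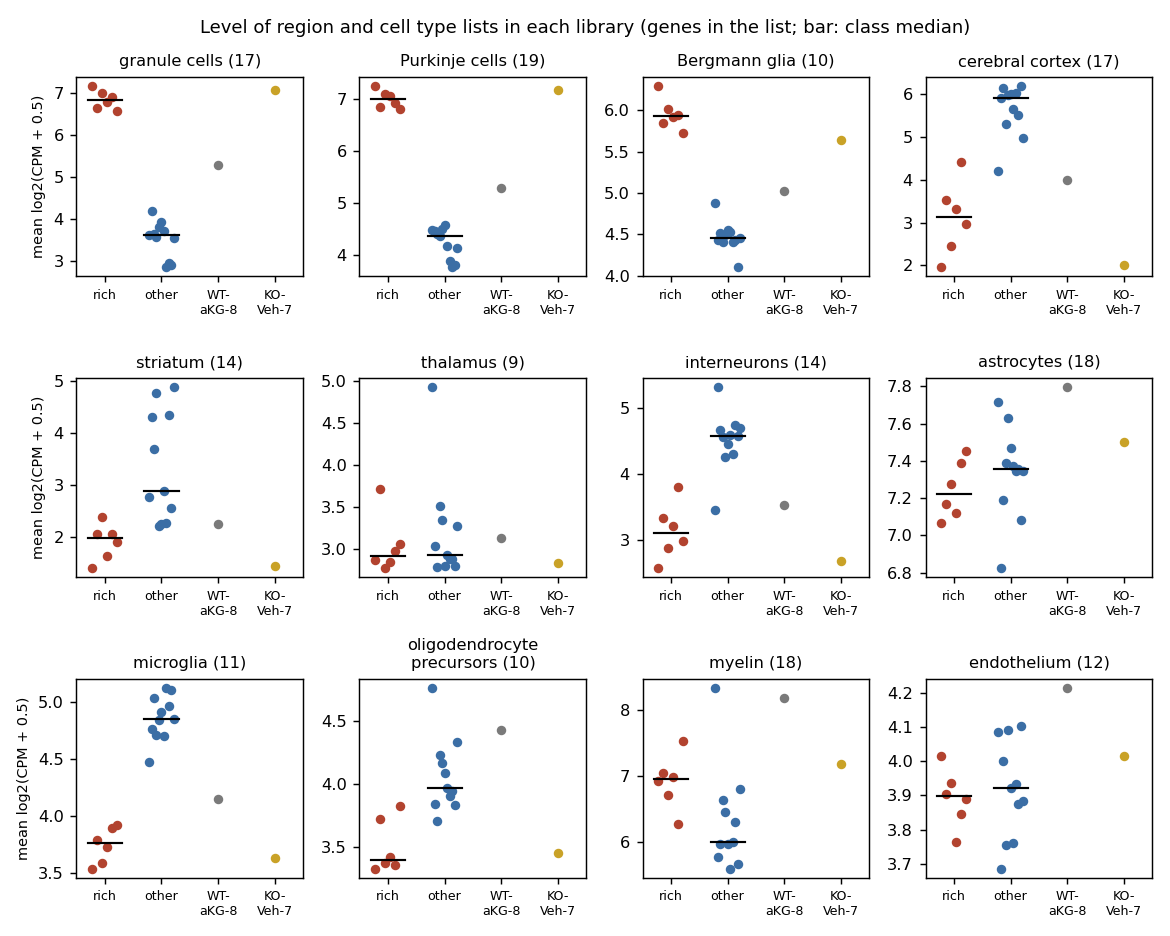
Mean log2(CPM + 0.5) of 12 gene lists, with a point for each library, the number of genes in parentheses and a bar at the class median; WT-aKG-8 and the knockout library KO-Veh-7 stand apart on the right of each panel. Granule, Purkinje and Bergmann lists separate the classes upward, the microglial list downward, and the endothelial list not at all. The granule list includes Cbln1, Cbln3, Gabra6 and Zic1 and the Purkinje list Pcp2. These genes made the split, so the separation of both lists follows in part from it.

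Receptor families held subunits that were higher beside subunits that were lower. Of 24 glutamate receptor genes 8 were higher and 14 lower. Grm4, the metabotropic receptor of parallel fibre terminals, was at 158 to 299 CPM (median 192) in the rich libraries against 10.02 to 26.7 CPM (median 15.3) in the others (log2 3.71). Gria4, an AMPA receptor subunit of Bergmann glia and granule cells, was at 109 to 147 CPM (median 112) against 7.14 to 25.1 CPM (median 12.6), a log2 fold change of 3.25. Gria1 was also higher (log2 1.52), Gria2 was not past the threshold (log2 -0.06, SE 0.17) and Gria3 was lower (log2 -0.62). Among NMDA receptor subunits Grin2c, the adult granule cell subunit, was at 96 to 134 CPM (median 108) against 24.6 to 43 CPM (median 31.9), a log2 fold change of 1.82. Grin2b, the forebrain and juvenile subunit, was at 8.72 to 24.6 CPM (median 11.9) against 39.4 to 112 CPM (median 67.5), a log2 fold change of -2.25. Of the genes named here Gria2 and Gria3 overlapped between the classes, and the other 5 did not.

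In the GABA and glycine receptor list 6 of 19 genes were higher and 9 lower, a median of -0.39; the count of higher genes includes Gabra6, which the split used. Gabrd, the δ subunit that pairs with Gabra6 in extrasynaptic granule cell receptors, was at 73.9 to 142 CPM (median 103) against 9.62 to 37.3 CPM (median 19.3), a log2 fold change of 2.3. The classes did not overlap. Gabra2 (log2 -0.50) and Gabra3 (log2 -1.9), subunits of immature and forebrain neurons, were lower, and Gabra5, a hippocampal subunit, was at 1.04 to 6.78 CPM (median 3.99) against 19.6 to 69.97 CPM (median 35.7), a log2 fold change of -3.23. Gabra2 overlapped, and Gabra3 and Gabra5 did not.

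Of 24 potassium channel genes 10 were higher and 10 lower. Kcnc1, a fast delayed rectifier, was at 169.9 to 228 CPM (median 197) against 36 to 76.3 CPM (median 48.3), a log2 fold change of 2.00, Kcnk3, the TASK-1 leak channel, at 46.6 to 98.4 CPM (median 69.8) against 13.7 to 27.9 CPM (median 17.6), a log2 fold change of 1.91, and Kcnd2, the A-type channel Kv4.2, had a log2 fold change of 1.69 (SE 0.15). Kcna4 was lower (log2 -1.66, SE 0.19). Calcium signalling genes were higher in 14 and lower in 7 of 27 (median 0.57): the pump Atp2a3 was at 21.6 to 54.7 CPM (median 29.3) against 1.32 to 4.63 CPM (median 3.01), a log2 fold change of 3.6, and Cacna1g, a T-type calcium channel, had a log2 fold change of 2.08 (SE 0.11). None of the 6 genes named from these lists overlapped.

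**Figure D3:**
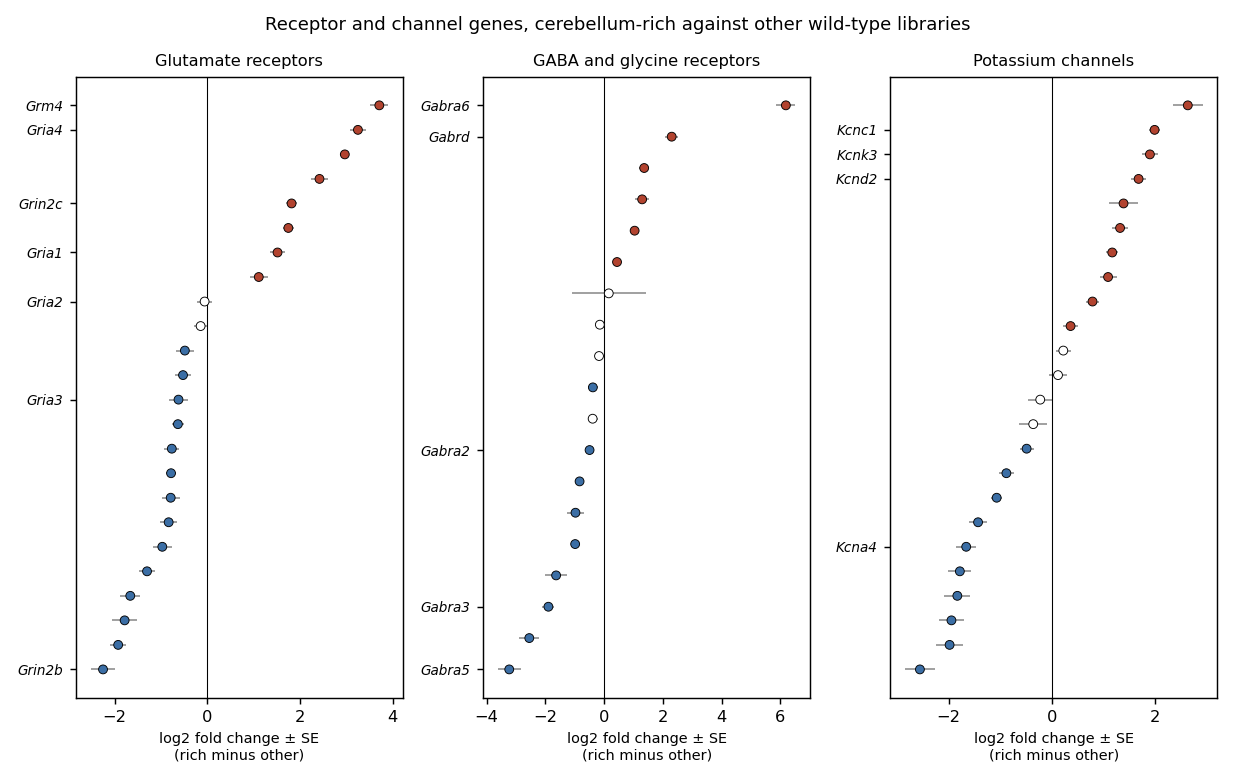
Log2 fold change with its SE for the members of 3 receptor and channel lists, ordered by value, with names for the genes described here; red marks genes higher, blue genes lower and white genes not past the threshold. Each family holds members at both ends, from 3.71 for Grm4 to -2.25 for Grin2b in the glutamate receptors.

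The cerebellins also differed in both directions. Cbln2 lay at 0.667 to 10.3 CPM against 8.69 to 34.2 CPM (log2 -2.26) and Cbln4 at 0.741 to 3.98 CPM (median 1.84) against 2.32 to 13.1 CPM (median 7.94), a log2 fold change of -1.76, opposite to Cbln1 and Cbln3. C1ql3, a C1q-like synaptic protein of the forebrain, was at 3.38 to 5.90 CPM (median 4.71) against 10.1 to 32.9 CPM (median 19.3). Zic genes were also higher beside Zic1, among them Zic2 (log2 2.62), Zic4 (log2 2.43) and Zic5 (log2 2.79). Among synaptic vesicle genes 5 of 26 genes were higher and 11 lower. Syt4 (log2 1.43), a synaptotagmin, and Unc13c (log2 1.56), the Munc13-3 of parallel fibres, were higher without overlap. Syn1, synapsin 1, was at 29.6 to 98.9 CPM (median 60.9) against 114 to 222 CPM (median 193), a log2 fold change of -1.56. Among perineuronal net and matrix genes 5 of 11 were higher and 4 lower, with a median of 0.09. Tnc, the glycoprotein tenascin C, was at 16 to 56.7 CPM (median 20.2) against 3.28 to 8.67 CPM (median 5.92), a log2 fold change of 2.32. Ncan, the proteoglycan neurocan, was at 18.5 to 70.8 CPM (median 49.3) against 167 to 237 CPM (median 194), a log2 fold change of -2.11 and Bcan was lower (log2 -0.88). Cbln2 and Cbln4 overlapped between the classes, and C1ql3, Syn1, Tnc, Ncan and Bcan did not.

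Glycolysis had a median of 0.01, with 5 genes higher and 8 lower of 24. Within it the hexokinases differed in opposite directions. Hk1, the main neuronal hexokinase, was at 53.3 to 79.98 CPM (median 65.4) in the rich libraries against 83.8 to 150.5 CPM (median 133) in the others, and Hk2 at 6.61 to 13.9 CPM (median 13.1) against 2.73 to 4.68 CPM (median 3.48). Their log2 fold changes of -0.87 (SE 0.15) and 1.78 (SE 0.15) kept their signs with library size only. Among pyruvate and citric acid cycle genes 10 of 37 genes were higher and 5 lower (median 0.00): Mpc1, a subunit of the mitochondrial pyruvate carrier, was higher (log2 0.72) and Pdha1, of pyruvate dehydrogenase, lower (log2 -0.48). In mitochondrial carriers 3 of 23 genes were higher and 8 lower, with a median of -0.19 that turned to 0.04 with library size only. Ak5, an adenylate kinase, was at 5.23 to 17.3 CPM (median 7.22) against 25.1 to 60.3 CPM (median 48), a log2 fold change of -2.33. None of Hk1, Hk2, Mpc1, Pdha1 and Ak5 overlapped, but few members of their lists shared this. Without overlap were 3 of 24 glycolysis genes, 2 of 37 pyruvate and citric acid cycle genes and 2 of 8 creatine genes. Of the 23 carriers 0 were. Among all genes the shares were 10.3% higher and 7.92% lower.

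Nuclear and mitochondrial genes of oxidative phosphorylation differed in opposite directions. Of 42 nuclear genes 19 were higher and 2 lower (median 0.20). Ndufa4, a cytochrome oxidase subunit, was at 2025 to 3600.4 CPM (median 2484) against 1152 to 1894 CPM (median 1622) and Cox6a2, a cytochrome oxidase isoform of muscle and some neurons, at 0.667 to 3.70 CPM (median 1.33) against 4.93 to 15 CPM (median 9.36). Neither gene overlapped. All 13 genes of the mitochondrial genome were lower (median -0.68, and -0.44 with library size only). The 1 member without overlap was mt-Nd2, a complex I subunit, at 2296 to 5369 CPM (median 5075) against 5375 to 11764 CPM (median 8654). Mitochondrial mRNA took 6.82% to 12.8% of counts in the rich libraries and 11.5% to 17.2% in the others, and mitochondrial ribosomal RNA 16.9% to 22.7% and 17.9% to 29.8%. The part of RNA quality or capture in this difference was not tested. Without WT-Veh-1, the lowest of the rich class, the median was -0.54.

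Gpt2 itself did not pass the threshold (log2 -0.15, SE 0.12, and 0.08 with library size only). Among 10 transaminases 1 was higher and 4 lower, with a median of -0.23 that became 0.00 with library size only. Gpt, the cytosolic alanine aminotransferase, was at 2.90 to 7.79 CPM (median 3.95) against 3.81 to 13 CPM (median 7.61), and Got1 and Got2, the aspartate aminotransferases, had log2 fold changes of -0.43 (SE 0.10) and -0.52 (SE 0.12). In glutamate, glutamine and GABA metabolism 6 of 24 genes were higher and 7 lower: besides Slc1a2 and Glul the transporters Slc1a1 (log2 -1.02) and Slc1a4 (log2 -0.73) were lower, and Slc1a6 was the highest. Of 21 amino acid transporters 3 were higher and 9 lower, with a median of -0.15 that turned to 0.07 with library size only. Slc43a2, a neutral amino acid transporter, was at 23.5 to 35 CPM (median 28) against 9.21 to 20.7 CPM (median 12.5) and Slc38a4 at 0.169 to 1.03 CPM (median 0.792) against 0.572 to 5.94 CPM (median 4.01). Slc1a1, Slc1a4 and Slc43a2 did not overlap between the classes, and Gpt, Got1, Got2 and Slc38a4 did.

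The 2-oxoglutarate-dependent dioxygenases, enzymes that use α-ketoglutarate as a substrate, were higher in 16 and lower in 3 of 30 genes, a median of 0.33 (0.56 with library size only). Their mean log2 level was 4.03 to 4.26 (median 4.14) in the rich libraries and 3.8 to 3.96 (median 3.87) in the others, without overlap. The histone demethylases Kdm3b (log2 0.81), Kdm4c (log2 0.80) and Kdm7a (log2 0.70) were higher without overlap, and the DNA demethylase Tet1 was at 16.2 to 28.2 CPM (median 19.6) against 10.1 to 18.3 CPM (median 14.2). Egln3, a HIF prolyl hydroxylase, was lower (log2 -1.29, SE 0.25). In serine, glycine and one-carbon metabolism 4 of 21 genes were higher and 6 lower; Phgdh, the entry enzyme of serine synthesis, had a log2 fold change of -0.54 (SE 0.13) and Mat2a, which makes S-adenosylmethionine, was at 90.2 to 143 CPM (median 105) against 40.2 to 84.6 CPM (median 57.9). Tet1, Egln3 and Phgdh overlapped, and Mat2a did not.

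In cholesterol synthesis 5 of 26 genes were higher and 6 lower (median -0.06, and 0.17 with library size only), and Hmgcs1, an early enzyme of the pathway, was not past the threshold (log2 -0.35, SE 0.18). Ebp, a sterol isomerase, was at 33.8 to 46.8 CPM (median 41) against 10.6 to 21.3 CPM (median 14.1), a log2 fold change of 1.5. In cholesterol efflux and turnover 7 of 16 genes were higher and 5 lower; the exporter Abcg1 (log2 0.90) and the reelin receptors Vldlr (log2 0.81) and Lrp8 (log2 0.74) were higher without overlap, and Lpl, lipoprotein lipase, was at 1.78 to 7.16 CPM (median 2.12) against 8.81 to 27.1 CPM (median 14.9), a log2 fold change of -2.1. Scd3, a stearoyl-CoA desaturase, was at 6.25 to 9.74 CPM (median 6.96) against 1.02 to 3.62 CPM (median 1.35) and Thrsp, a lipogenic regulator, had a log2 fold change of 1.28 (SE 0.14), while Fads2 was lower (log2 -0.86). Sphingolipid and ganglioside genes were higher in 11 and lower in 5 of 25 (median 0.36), with the sialyltransferase St8sia5 at 46 to 66.6 CPM (median 61.2) against 11.2 to 26.8 CPM (median 17.4). Among phosphoinositide and phospholipid genes Inpp5a, which removes the 5-phosphate of inositol trisphosphate, was at 102 to 141 CPM (median 118) against 16.5 to 30.4 CPM (median 24.3), a log2 fold change of 2.41 and Mgll, the lipase of the endocannabinoid 2-AG, was lower (log2 -1.56). Fads2 and Mgll overlapped between the classes, as did Hmgcs1, and the other lipid genes named did not.

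**Figure D4:**
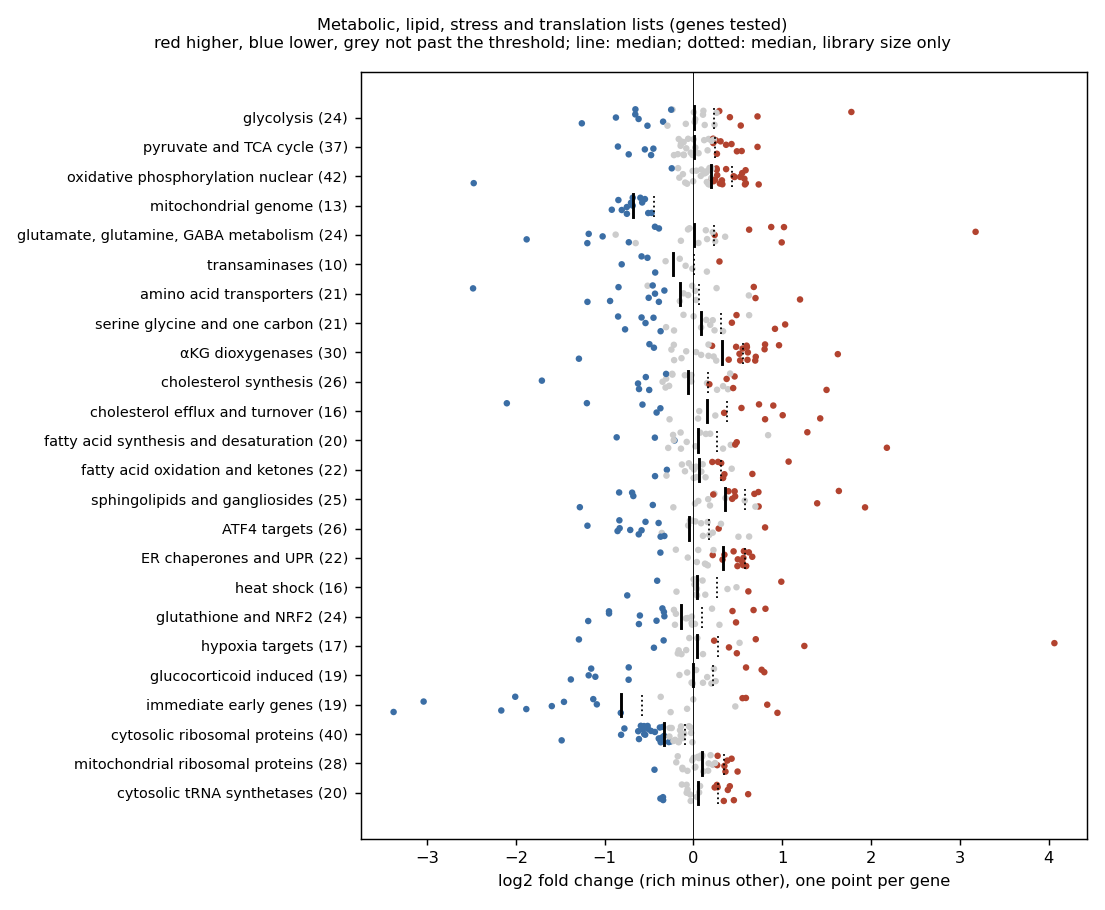
Log2 fold change of each gene in 24 metabolic, lipid, stress and translation lists, with the median as a solid line and the median with library size only as a dotted line. The lists with the lowest medians are the immediate early genes (-0.82) and the mitochondrial genome (-0.68).

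The stress lists differed from each other in their counts of higher and lower genes, with small medians. Of 26 ATF4 targets 2 were higher and 11 lower. With TMM their mean log2 level was 3.5 to 3.63 (median 3.58) in the rich libraries and 3.65 to 3.89 (median 3.71) in the others, without overlap. The median of -0.05 became 0.18 with library size only and -0.12 without the 3 libraries high in Hox genes. Atf4 itself was slightly higher (log2 0.28, SE 0.11), Ddit3, the CHOP factor, lower (log2 -0.39, SE 0.10), and Slc7a3, a cationic amino acid transporter, at 1.69 to 5.29 CPM (median 2.73) against 3.64 to 11.5 CPM (median 7.37). All 3 overlapped. Endoplasmic reticulum chaperones and unfolded protein response genes were higher in 13 and lower in 1 of 22 (median 0.34); Hspa5, the BiP chaperone, was at 164 to 359.8 CPM (median 230.0) against 128 to 215 CPM (median 169), and its ranges overlapped, as did those of every member. In the heat shock list 2 of 16 genes were higher and 2 lower, and Hspa8 had a log2 fold change of 0.04 (SE 0.11).

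Metallothioneins, which bind zinc and copper, did not separate the classes. Mt1 was at 755 to 1659 CPM (median 1286) against 794 to 1737 CPM (median 1292), Mt2 at 346 to 1314 CPM (median 859) against 372 to 989.5 CPM (median 633) and Mt3 at 46.1 to 242 CPM (median 53.4) against 58.5 to 241 CPM (median 90.3). The ranges of all 3 overlapped broadly. Among glucocorticoid-induced genes 3 of 19 genes were higher and 6 lower: Fkbp5, a co-chaperone of the receptor, was lower (log2 -1.18), Sgk1, a serum and glucocorticoid kinase, higher (log2 0.77) and Tsc22d3 not past the threshold (log2 0.20, SE 0.15). Nr3c2, the mineralocorticoid receptor, was at 2.62 to 5.37 CPM (median 4.11) against 6.40 to 13.5 CPM (median 8.58). In the glutathione and NRF2 list 4 of 24 genes were higher and 9 lower, with a median of -0.14 that turned to 0.09 with library size only; Sod1 was lower (log2 -0.60) and Gsr, glutathione reductase, higher (log2 0.68), both without overlap. Among hypoxia genes 6 of 17 genes were higher and 3 lower, against 28.3% and 26.9% of all genes, with a median of 0.04. The 2 members without overlap were Hif1a, a hypoxia-inducible factor, at 61.9 to 104 CPM (median 81.4) against 26.2 to 45 CPM (median 35), and Car9, a carbonic anhydrase, at 2.83 to 6.61 CPM (median 4.82) against 0.0801 to 0.684 CPM (median 0.228), a log2 fold change of 4.07. Fkbp5, Sgk1 and Tsc22d3 overlapped between the classes, and Nr3c2, Hif1a and Car9 did not.

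Immediate early genes were lower in 10 and higher in 4 of 19, a median of -0.82. Egr1 was at 12.1 to 35.8 CPM (median 17.1) against 30.1 to 119.5 CPM (median 76), Egr3 at 0.963 to 11.3 CPM (median 3.82) against 6.48 to 84.1 CPM (median 44.7), a log2 fold change of -3.38 and Nptx2 at 3.21 to 9.60 CPM (median 4.41) against 12.6 to 41.9 CPM (median 22.6). Fos went the other way, at 31.5 to 147 CPM (median 63.7) against 29.3 to 77.7 CPM (median 35.9), a log2 fold change of 0.83 (SE 0.23), with overlap. Egr1 and Egr3 overlapped too, and Nptx2 did not.

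Cytosolic ribosomal protein genes were lower in 23 of 40 and higher in none (median -0.34, and -0.10 with library size only); these genes have many near-identical copies, so single members are uncertain. Mitochondrial ribosomal protein genes were higher in 7 and lower in 1 of 28, and cytosolic tRNA synthetases in 8 and 3 of 20.

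Whether the class difference depended on dm-αKG was examined with an interaction term. The split took libraries high in the markers in both treatments. It therefore partly sets the outcome for the markers and for genes that follow them. No gene of 15706 (0%) passed an adjusted p under 0.05 in edgeR. At an unadjusted p under 0.05 there were 349 (2.22%), fewer than the 5% that chance alone gives. DESeq2 also called none and gave 321. Each treatment held 3 rich libraries, beside 7 other WT-Veh and 4 other WT-aKG libraries, which limits the size of interaction that could be found.

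WT-aKG-8, which the comparison left out, was placed between the classes by genes other than the markers. For 1498 genes over 2-fold apart and of at least 5 CPM, a position of 0 is the mean log2 level of the other class and 1 that of the rich class. The median position of WT-aKG-8 was 0.51, and 1310 of the 1498 genes (87.4%) lay between the class means. The rich libraries had median positions of 0.78 to 1.26 and the others of -0.14 to 0.26. The 1498 genes were picked for differing between the classes, so these class ranges follow from that choice. The microglial level of WT-aKG-8, 4.15, also lay between the classes. In other lists it was not intermediate: its astrocyte level of 7.8 and its endothelial level of 4.21 lay above all 17 libraries of both classes, and its summed Hox CPM was 225.9. Its midbrain and brainstem level of 2.89 and its myelin level of 8.18 lay above every library of both classes except WT-Veh-2.

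The 18 knockout libraries had no part in the split, and they gave a test of the same pattern. Their marker scores ran from 1.95 to 9.09, with KO-Veh-7 at 9.09 and KO-aKG-7 at 7.35, and the slope of each gene on the score was fitted with treatment as a covariate. Of 15253 genes 2246 (14.7%) passed the threshold, 1263 (8.28%) increasing and 983 (6.44%) decreasing with the score. Without KO-Veh-7 132 (0.867%) and 7 (0.046%) of 15224 genes remained past the threshold, so most of the calls rest on that library. The 2 highest scores belong to KO-Veh-7 and KO-aKG-7, which share a replicate number. Without both, 63 genes passed, and with the replicate number as a block 9 did. The p-values below come from the fit without that block. Among the 2230 genes called in the knockouts and tested in the wild type, markers left out, 2035 differed in the same direction in the wild-type split (91.3% of the knockout calls and 24.5% of the wild-type list), 3 in the opposite direction, and 192 were not past the threshold there. Without KO-Veh-7 130 of 134 called genes differed in the same direction in both. Among all genes tested in the wild type 28.3% were higher and 26.9% lower. Of 8297 wild-type genes past the threshold 7648 (92.2%) had the same sign of slope in the knockouts. That share includes KO-Veh-7 in the fit. It was not computed without this library or for all genes, and genes that vary together are not independent cases.

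Cerebellar genes that did not make the score were tested for a slope on it by edgeR's quasi-likelihood test. Of the granule cell list without markers 13 of 13 genes increased, and 8 of 13 without KO-Veh-7. Of the Purkinje list it was 16 of 17, and 9 of 17 without it. Bergmann glia genes increased in 5 of 10, and 2 of 10 without KO-Veh-7, and other cerebellar neuron genes in 4 of 7, and 2 of 5. Fat2 was at 270.1 CPM in KO-Veh-7 and at 0.605 to 61.4 CPM (median 3.00) in the other 17, a slope of 1.12 (SE 0.03; adjusted p = 7.2e-15, and 7.4e-11 without KO-Veh-7) in log2 per unit of the score. Car8 had 773 CPM in KO-Veh-7 and 10.5 to 204 CPM in the others, a slope of 0.80 (SE 0.04; adjusted p = 3.7e-12, and 4.0e-08 without KO-Veh-7). En2 had a slope of 1.01 (SE 0.04; adjusted p = 2.6e-14, and 2.9e-09 without KO-Veh-7). For the receptors Grm4 and Gria4 the slopes were 0.60 (SE 0.04; adjusted p = 1.7e-08, and 2.5e-04 without KO-Veh-7) and 0.53 (SE 0.04; adjusted p = 2.5e-08, and 1.9e-04 without KO-Veh-7).

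For the microglial, ribosomal, cortical and dioxygenase lists the knockout calls rested on KO-Veh-7. Microglial genes decreased with the score in 7 of 11, and in none without KO-Veh-7. Cx3cr1 was at 7.96 CPM in KO-Veh-7 and 10.03 to 23.9 CPM in the other 17, with a slope of -0.20 (SE 0.04; adjusted p = 0.0037, and 0.15 without KO-Veh-7) in edgeR. Ribosomal protein genes decreased in 11 of 40, cortical genes in 4 of 17 and α-ketoglutarate dioxygenases increased in 2 of 30, and none of these passed without it. Of 26 ATF4 targets 1 increased and 1 decreased, and neither passed without KO-Veh-7. All 18 knockouts, KO-Veh-7 with a mean log2 level of 4.28 among them, lay above every wild-type library in that list. On the scale of the 1498 genes KO-Veh-7 had a median position of 1.13, KO-aKG-7 of 0.44 and the other 16 knockouts of -0.09 to 0.49. At least 1 of those 16 lay above KO-aKG-7 despite a lower marker score.

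**Figure D5:**
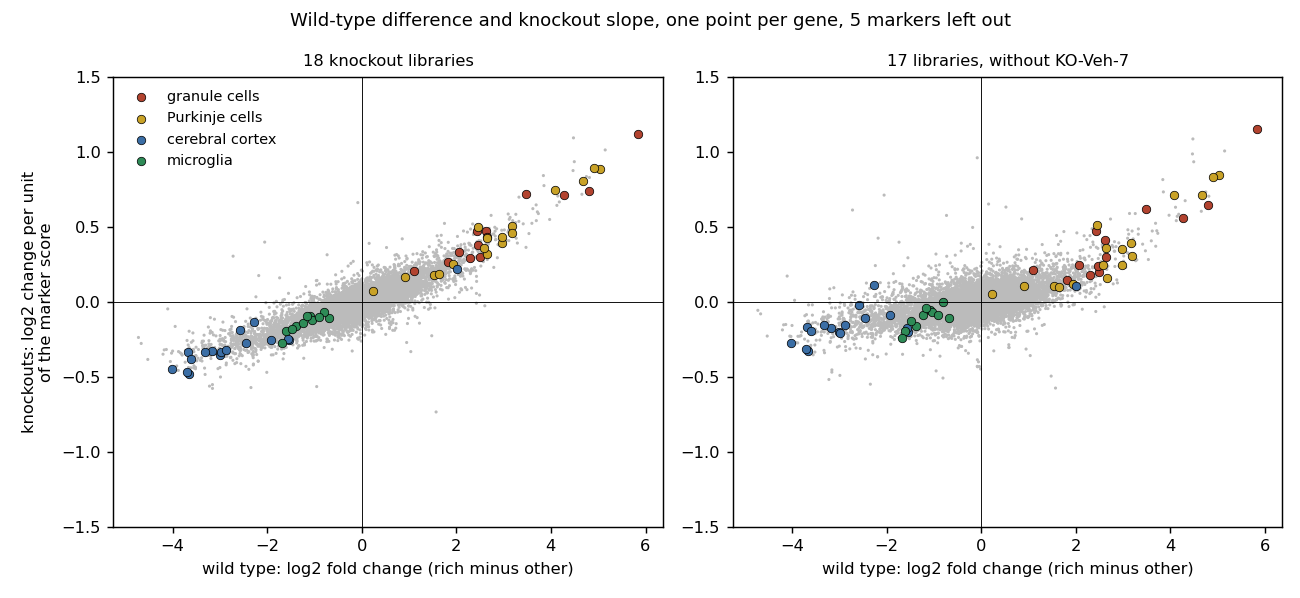
Wild-type log2 fold change on the horizontal axis against the knockout slope in log2 per unit of the marker score on the vertical axis, a point for each gene, with all 18 knockouts on the left and without KO-Veh-7 on the right. Granule and Purkinje genes lie at the upper right in both panels, and cortical and microglial genes mostly at the lower left, the cortical genes closer to 0 without KO-Veh-7.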

How the data were processed

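Polyadenylated RNA of 36 brain libraries was reverse transcribed with oligo-dT primers carrying a barcode and a molecular identifier and tagmented, per the labels' protocols. Tools named in the submitters' processing notes are HISAT2 2.2.1 and featureCounts 2.0.6, with Trim Galore 0.6.10, SAMtools 1.6, FastQC 0.12.1 and deepTools beside them; mm39 and mm10 are both listed. Which build was counted on, the use of strand and the collapsing of identifiers were left unstated there. The authors deposited estimated counts per gene, written as whole numbers, and a CPM table of 21637 genes, which returns the counts to within 0.51 for 99.995% of values or more per library and was used for limma. Of 56184 symbols 19498 had no count. Overlapping and antisense genes and near-identical copies are uncertain.

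Counts were fitted with edgeR 4.0.16 (R 4.3.3): filterByExpr, TMM factors from all 36 libraries, robust quasi-likelihood, treatment as covariate, Benjamini-Hochberg over all genes tested, threshold 0.05. The wild-type split is a description. The knockout slope and the interaction of class and treatment are tests, the interaction a limited one because it uses the libraries of the split. DESeq2 1.42.0 and limma 3.58.1 on log2(CPM + 1) were alternatives. Simulated counts held 200 planted changes among 15706 genes. The fit of the split recovered 96% of those of log2 1 and 100% of those of log2 2. False calls made up 3.45% of its calls, and 6.98% in a like simulation of the knockout slope. The simulation used the same dispersion for every gene, far fewer differing genes than these data and the scaling factors as given. It therefore does not test the normalisation. Libraries were counted as replicates, since the series calls them biological; none of 73 pairs within a wild-type group was identical. Separate animals are not stated, and a p-value then covers only spread among libraries, which may be technical. Genes were named by rule: the markers, Gpt2, the 10 largest differences each way (at least 5 CPM, classes not overlapping), the first 3 members of each list and up to 4 of its members with the smallest p, metallothioneins, Zic genes and the 4 cerebellins. Rora, Aldoc, Etv5, Nhlh2, Draxin, Grin2b and Gabra5 were named after their values were seen. Members and lists were chosen with earlier results of these data known. Predicted and sex-linked genes were left out of the largest differences, and some genes that the rule names are not reported here.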

Additional observations from a re-analysis of the deposited data

Results flagged for a closer look

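In the 6 rich libraries 63 measures (60 list levels and 3 library measures) were examined for a library far from the rest by Dixon's ratio, and 5 passed; chance alone flags about 1 in 20. WT-Veh-1 was lowest in the mean log2 level of mitochondrial genome genes, 10.65 against 11.56 for the next library. It was also lowest in the share of counts from mitochondrial mRNA, 6.82% against 11.3%. WT-Veh-1 was highest in cytosolic tRNA synthetases, 5.02 against 4.71. WT-Veh-6 was highest in the thalamus list, 3.71 against 3.05. WT-aKG-7 was highest in fatty acid synthesis and desaturation, 5.33 against 5.15, and is also the rich library with the highest summed Hox CPM.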

How the results depend on the processing

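Counts of wild-type genes past the threshold ranged from 6042 (dm-αKG libraries only) to 9700 (no filter on low counts) over the alternatives; DESeq2 gave 8718, library size only 8735, at least 5 CPM 6426, the marker score in place of the split 8419, and limma on the deposited CPM 7795. Leaving out 1 library gave 8102 to 9109, and leaving out the 3 libraries high in Hox genes, an alternative added after seeing the data, 8213. In the knockouts the 2246 calls became 139 without the highest library KO-Veh-7 and 63 without the 2 highest, and leaving out each library gave 139 to 2723; other fits gave 2936 (DESeq2) and 1881 (no filter). With library size only the knockout calls were 2654 higher and 123 lower. Leaving out each wild-type library gave no interaction call in edgeR.

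The median of 13 lists changed sign with library size only. The values became 0.0387 for mitochondrial carriers, 0.0022 for transaminases, 0.065 for amino acid transporters, 0.091 for fatty acid binding and activation, 0.092 for glutathione and NRF2 and 0.00067 for cerebellins with their partners. They became 0.14 for thalamus, 0.13 for astrocytes, 0.17 for cholesterol synthesis, 0.18 for ATF4 targets, 0.22 for glucocorticoid-induced genes, 0.07 for metallothioneins and 0.18 for potassium channels. In limma on the CPM the sign also turned for mitochondrial carriers (0.039), transaminases (0.012), amino acid transporters (0.11), fatty acid binding (0.10) and glutathione and NRF2 (0.091). The shift of all genes with library size only was 0.24. With the 3 libraries high in Hox genes left out, the medians of glutamate metabolism (0.14) and transaminases (-0.33) moved as well.

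Replicate numbers are shared between WT-Veh and WT-aKG. Over 7 pairs 4 correlations exceeded 0.1 and 2 libraries correlated best with their own number. The numbers were not taken as pairs, although so few pairs cannot settle whether libraries of the same number share a source. In the knockouts 4 of 8 correlations exceeded 0.1 and 1 library correlated best with its own number, and with the score taken out 1 of 8 and none did. With the replicate block 7010 wild-type genes passed, and the knockout calls fell to 9. No gene named here as higher or lower changed sign under an alternative that was run; 59 gene values fell short of the threshold, 13 newly passed it and 4719 stayed on the same side. Depth limits genes under about 1 CPM. The filter took the classes into account, so a tested gene can lie below that level in 1 class. Trh, for example, had a mean of 0.184 CPM in the rich libraries and 3.47 CPM in the others. Fold changes of such genes rest on values near the floor.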

Other observations

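Some further lists of the rich and other wild-type libraries were read in the same way. In fatty acid oxidation and ketone genes 7 of 22 genes were higher and 2 lower, with a median log2 fold change of 0.06. In fatty acid binding and activation 3 of 12 genes were higher and 4 lower, with a median of -0.14 that turned to 0.09 with library size only. In the pentose phosphate pathway 1 of 7 genes was higher and 2 lower, in creatine metabolism 2 of 8 genes were higher and 2 lower, and among p53 targets 3 of 13 genes were higher and 2 lower, with medians of 0.14, 0.01 and 0.01.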
